A study of Mus musculus with 6 samples.

Results

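The thermogenic genes of brown fat were followed in the aortic arches of 6 mice. The group comprised 10 genes, Ucp1, Cidea, Elovl3, Dio2, Ppargc1a, Prdm16, Zic1, Cpt1b, Fabp3 and Otop1, and their probes were those whose gene name in the scanner files equalled a member. This gave 15 of the 55681 probes on the array, at least 1 for each of the 10 genes, out of 34821 gene names. All mice were female, carried the strain label C57BL/6, and had the genotype Mir21+/+ in their own tissues. Each had received 2 X-ray doses of 5 Gy to the whole body within 4 h and then a bone marrow transplant. High-fat feeding started 3 weeks after the irradiation and lasted 12 weeks. In the group BM Mir21 WT (3 mice) the marrow donors were Mir21+/+, and in the group BM Mir21 KO (3 mice) they were Mir21–/–, so the deletion was carried by marrow-derived cells only. No age is given here.

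Brown adipocytes burn fuel to make heat. Noradrenaline from sympathetic nerves raises cyclic AMP in these cells, which releases fatty acids from the lipid droplet and switches on transcription through CREB and PGC-1alpha. The fatty acids enter mitochondria and open the uncoupling protein UCP1, which lets protons flow back without making ATP. The fat around the thoracic aorta of the mouse resembles brown fat, and it is easily taken along when an arch is dissected.

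All 10 genes of the group were measured, with 14 of the 15 probes well above background on every array. The exception was a dimmer Ppargc1a probe, which was not well above background on knockout replicates 2 and 3. Detection alone does not show that a reading came from brown fat. Of 20 pan-adipocyte genes (genes of fat cells, many of them shared by white and brown fat, such as Adipoq and Plin1), 20 were well above background on all 6 arrays. The labelled tissue was represented too, with 10 of 10 smooth muscle markers well above background on all arrays. No probe carried the name of Mir21 (0 of 55681), so the deletion itself could not be checked. Across the arrays 66.4% to 74.4% of spots lay well above background, and the 75th percentile of signal ran from 239 to 407, with knockout replicate 3 lowest in both. All arrays shared 1 slide and 1 scan, with the wild-type arrays in slide row 1 and the knockout arrays in row 2, and the effect of slide row cannot be told apart from that of the marrow.

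The promoters of 3 thermogenic genes are shown first, because cyclic AMP is known to act on all 3 genes while their array patterns differed. Each is the 250 bases before the transcription start in RefSeq on GRCm38.p6, 5′ to 3′, for Ucp1 at chr8:83290098-83290347 (plus strand), Dio2 at chr12:90739039-90739288 (minus strand) and Ppargc1a at chr5:51567726-51567975 (minus strand). Capitals mark the cyclic AMP response element half-site TGACG or its reverse complement CGTCA, the full palindrome TGACGTCA, the TATA box TATAAA and the nuclear receptor half-site AGGTCA.
Ucp1: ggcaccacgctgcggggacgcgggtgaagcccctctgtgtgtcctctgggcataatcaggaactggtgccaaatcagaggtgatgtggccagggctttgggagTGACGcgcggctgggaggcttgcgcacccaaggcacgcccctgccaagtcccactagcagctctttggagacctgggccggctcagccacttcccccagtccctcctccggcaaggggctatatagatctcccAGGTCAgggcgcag
Dio2: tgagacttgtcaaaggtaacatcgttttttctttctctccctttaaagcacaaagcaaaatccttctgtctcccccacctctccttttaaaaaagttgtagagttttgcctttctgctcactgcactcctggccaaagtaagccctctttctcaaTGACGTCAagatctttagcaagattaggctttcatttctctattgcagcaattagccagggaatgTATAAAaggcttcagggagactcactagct
Ppargc1a: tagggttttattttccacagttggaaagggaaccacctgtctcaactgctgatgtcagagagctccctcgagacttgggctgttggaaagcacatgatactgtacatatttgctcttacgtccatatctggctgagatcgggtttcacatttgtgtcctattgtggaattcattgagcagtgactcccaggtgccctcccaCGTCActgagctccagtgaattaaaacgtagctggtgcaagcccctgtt

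A promoter window was found for 7 of the 10 genes and was searched on both strands, from 250 bases before to 50 after the start. Each of the 7 had a single window, and any other starts of a gene were not searched. The half-site TGACG was present in 4 of the 7, namely Ucp1 (147 bases before the start), Fabp3 (149), Ppargc1a (49, minus strand) and Dio2 (95 and 92), against 20.8% of 32851 promoter windows of the same length. Dio2 alone among the 7 held the full palindrome TGACGTCA, which contains both of its half-sites and was present in 1.79% of all windows, and a TATAAA box 30 bases before the start (13.6% of all windows). Ucp1 alone held AGGTCA, 14 bases before the start (16.3% of all windows). None of the 7 held the extended ERR site TCAAGGTCA (0.423% of all windows), 2 such half-sites 1 base apart (0.0396%), or the EBF site, TCCC and GGGA 2 bases apart (0.904%). A match describes letters in a window and not a bound site, and the windows share promoter features such as base composition.

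Each transcript level is a log2 processed signal, scaled to the 75th percentile of its array, and a difference is the knockout mean less the wild-type mean on that scale. On knockout replicates 2 and 3, the brightest probes of Ucp1, Cidea, Elovl3, Cpt1b, Fabp3 and Otop1 read far below all other arrays, which a dimmer Otop1 probe did not. On knockout replicate 1 these 6 probes read close to the wild-type arrays, whereas Ppargc1a and Dio2 read above and Prdm16 below all 3 of them. For 8 of the 10 genes, by the brightest probe of each, both of these knockout arrays lay below all 4 others, and over all tested probes this held for 14.7%. The exceptions were Dio2 and Prdm16. The groups overlapped for 9 of the 10 genes, and no member passed the adjusted test. In bulk tissue fewer fat cells and less RNA per fat cell cannot be told apart.

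**Figure D1:**
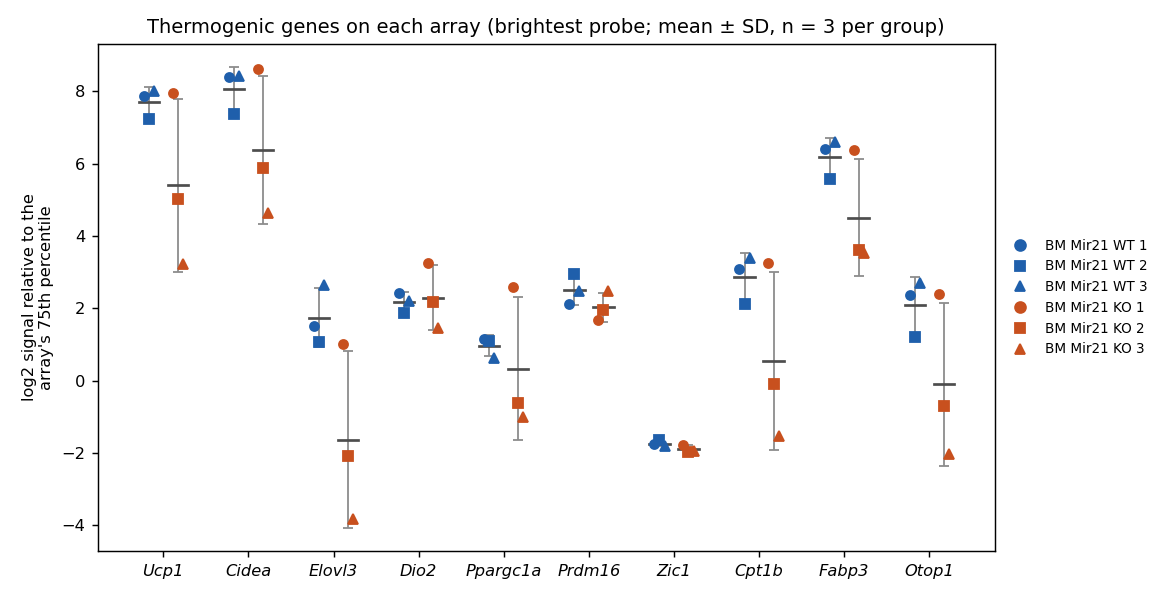
Log2 signal scaled to the 75th percentile of its array (vertical axis) of the brightest probe of each of the 10 thermogenic genes, with 1 point per array and the mean ± SD of each group (n = 3). Knockout replicates 2 and 3 lie lowest for 8 of the 10 genes, while on knockout replicate 1 Ppargc1a and Dio2 lie above all wild-type arrays; levels are not comparable between genes.

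Ucp1 is the proton channel that makes brown fat thermogenic. It read 7.87, 7.22 and 8.00 on the wild-type arrays, against 7.96, 5.01 and 3.23 on the knockout arrays. Knockout replicate 1 thus sat inside the wild-type range, while replicate 2 was 6.46-fold and replicate 3 22.2-fold below the wild-type mean. The highest and the lowest of the 6 arches differed 27.4-fold. The group means were 7.70 ± 0.42 and 5.40 ± 2.39 (SD, n = 3 each), a difference of -2.30 ± 1.03 (SE) with a 95% interval from -4.72 to 0.12 (limma, adjusted p = 0.59). It was -3.58 without knockout replicate 1 and -1.21 without knockout replicate 3.

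The Ucp1 measurement comes from a single probe, shown because the gene that defines thermogenic fat is read through it alone. On mm9 it lies on the plus strand at chr8:85821788-85821847, and its transcript accession is NM_009463.
Ucp1 probe: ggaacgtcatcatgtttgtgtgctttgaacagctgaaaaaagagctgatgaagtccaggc

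Cidea, a protein of the lipid droplet surface that is abundant in brown adipocytes, was likewise lowest on knockout replicates 2 and 3. It read 8.40, 7.37 and 8.43 with wild-type marrow, against 8.62, 5.87 and 4.64 with knockout marrow. Knockout replicate 1 was the highest of all 6 arrays and replicate 3 the lowest, with a 15.8-fold range. The difference was -1.69 ± 0.91 (95% interval from -3.81 to 0.43, adjusted p = 0.64), and it was -2.81 without knockout replicate 1 and -0.82 without replicate 3. Otop1 encodes a proton channel found in brown fat, and its brightest probe (chromosome 5 of mm9, 38695380 to 38695439) read 2.36, 1.20 and 2.70 against 2.39, -0.69 and -2.02. Its difference was -2.19 ± 1.02 (95% interval from -4.58 to 0.20, adjusted p = 0.60), again with knockout replicate 1 inside the wild-type range. It was -3.44 without knockout replicate 1 and -1.23 without replicate 3.

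Elovl3, an elongase that makes very long fatty acids when brown fat is recruited by cold, had the largest difference of the 10 genes. Its probe on chromosome 19 (mm9, 46209762 to 46209821) read 1.52, 1.07 and 2.64 with wild-type marrow, against 1.01, -2.08 and -3.81 with knockout marrow. All 3 knockout arrays were below all 3 wild-type arrays, although knockout replicate 1 missed the lowest wild-type array by a narrow margin. Elovl3 was the only 1 of the 15 probes whose groups did not overlap, where 6.14% of all tested probes were likewise lower without overlap. The range over the 6 arches was 87.3-fold. The difference was -3.37 ± 1.09, with a 95% interval from -5.92 to -0.81 (limma, adjusted p = 0.50). It was -4.69 without knockout replicate 1 and -2.28 without replicate 3. With another background correction (normexp) it was -2.41, beside -2.32 for Ucp1, so its size depends on how low signals are treated.

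Cpt1b and Fabp3 serve the delivery of fatty acids, Cpt1b as the muscle and brown fat form of the enzyme that passes them into mitochondria and Fabp3 as a fatty acid carrier of heart, muscle and brown fat. Cpt1b read 3.08, 2.11 and 3.40 on the wild-type arrays, against 3.25, -0.09 and -1.53 on the knockout arrays by its brightest probe (chromosome 15 of mm9, 89246836 to 89246895). Its difference was -2.31 ± 1.08 (95% interval from -4.84 to 0.21, adjusted p = 0.60). A second probe 270 bases away gave -2.19 ± 0.93 (95% interval from -4.36 to -0.02), with an unadjusted p of 0.049 and an adjusted p of 0.57 by limma. Both Cpt1b probes ordered the knockout arrays alike. Without knockout replicate 1 they gave -3.67 and -3.37, and without replicate 3 they gave -1.28 and -1.33.

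Fabp3 read 6.39, 5.58 and 6.59 with wild-type marrow, against 6.36, 3.62 and 3.54 with knockout marrow. Unlike the genes above, it was about equally low on knockout replicates 2 and 3. The difference was -1.68 ± 0.73 (95% interval from -3.38 to 0.02, adjusted p = 0.58), and the dimmer probe gave -1.68 ± 0.75. Without knockout replicate 1 the brightest probe gave -2.61. The files place the dimmer probe on chromosome 4 of mm9 at 129992643 to 129992702 and list the brightest as unmapped. Heart and skeletal muscle also express Fabp3, Cpt1b and Ppargc1a, and markers of both muscles were detected in the arches. The mean of 13 cardiac markers, centred over the arrays, ran from -0.46 to -0.28 with wild-type marrow and was 1.30, -0.94 and 0.72 with knockout marrow. All 13 were well above background on every array, and the part of cardiac RNA in the Fabp3 reading was not tested.

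Dio2, the deiodinase that makes active thyroid hormone inside brown adipocytes, was the only gene with a difference above 0. It read 2.42, 1.86 and 2.21 on the wild-type arrays, against 3.26, 2.17 and 1.46 on the knockout arrays (probe on chromosome 12 of mm9, 91963235 to 91963294). Knockout replicate 1 was the highest array and replicate 3 the lowest, only 3.47-fold apart. The difference was 0.13 ± 0.42, with a 95% interval from -0.86 to 1.12 (adjusted p = 0.95), and it turned to -0.35 when knockout replicate 1 was dropped and to -0.019 when wild-type replicate 2 was.

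Ppargc1a encodes PGC-1alpha, the coactivator that couples cold signals to mitochondrial biogenesis. Its brightest probe (chromosome 5 of mm9, 51848928 to 51848987) read 1.16, 1.11 and 0.63 with wild-type marrow, against 2.59, -0.61 and -0.998 with knockout marrow. The knockout arrays thus lay on both sides of the wild-type arrays, with replicate 1 above all 3 and replicates 2 and 3 below all 3. The difference was -0.64 ± 0.85 (95% interval from -2.63 to 1.35, adjusted p = 0.85), and it was -1.77 or 0.023 when knockout replicate 1 or 3 was dropped. A dimmer probe 2002 bases away read -3.08, -3.67 and -3.57 against -1.96, -5.45 and -5.02. Its readings on knockout replicates 2 and 3 were not well above background, so this probe bears on the gene there only as a bound.

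Prdm16 and Zic1 are regulators of brown fat identity, and neither showed the deep readings on knockout replicates 2 and 3. Prdm16, a transcriptional coregulator that commits precursors to brown fat, read 2.12, 2.96 and 2.46 on the wild-type arrays, against 1.68, 1.95 and 2.47 on the knockout arrays. Its lowest array was knockout replicate 1, the array where Cidea and Ppargc1a were highest. The difference was -0.48 ± 0.28 (95% interval from -1.14 to 0.18, adjusted p = 0.66).

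Zic1, a zinc finger factor that marks classical brown fat and is also expressed in the nervous system, varied little by its brightest probe. That probe (chromosome 9 of mm9, 91257301 to 91257360) read -1.76, -1.65 and -1.80 with wild-type marrow, against -1.77, -1.98 and -1.94 with knockout marrow, a range of 1.26-fold. A dimmer probe 1876 bases away read -3.29, -3.22 and -3.27 against -2.67, -3.77 and -3.94, with the highest array again knockout replicate 1. The differences were -0.16 ± 0.15 (95% interval from -0.51 to 0.19, adjusted p = 0.78) and -0.20 ± 0.32 (95% interval from -0.96 to 0.56, adjusted p = 0.88).

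Over the 10 genes the median difference was -1.68, beside 0.02 over all 38341 tested probes. By the brightest probe, 9 of the 10 genes had a difference below 0, whereas at least as many of all tested probes lay above 0 as below it. Of the 10 genes, 6 had a difference of -1 or lower, where 1.99% of all tested probes did. None of the 10 genes and 0 of the 15 probes passed the adjusted test (limma), which 0.00261% of all tested probes did, a single probe that belongs to no member. At an unadjusted p below 0.05, 2 of the 15 probes were lower, those of Elovl3 and the dimmer Cpt1b probe, against 4.27% of all tested probes. Without knockout replicates 2 and 3 the median was 0.29, beside 0.04 over all tested probes. On the remaining knockout array 7 of the 10 genes lay above the wild-type mean. The 3 below it were Elovl3, Prdm16 and Zic1.

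The readings were then set beside the total fat signal of each arch, as the mean over the 20 pan-adipocyte genes, none of which is a member. Relative to its wild-type mean, this fat signal stood at 0.15, -0.58 and 0.43 on the wild-type arrays and at 0.40, -1.86 and -3.08 on the knockout arrays. On knockout replicate 3 Ucp1 stood at -4.47, Elovl3 at -5.55, Cpt1b at -4.39 and Otop1 at -4.11 by their brightest probes, further down than the fat signal. Cidea at -3.43 was close to it, and Fabp3 at -2.65, Ppargc1a at -1.96 and Dio2 at -0.70 were less far down. Zic1 (-0.20) and Prdm16 (-0.05) stayed near their wild-type means on that array. On knockout replicate 2 Elovl3 stood at -3.82, Cpt1b at -2.95, Otop1 at -2.77, Ucp1 at -2.69, Fabp3 at -2.56 and Cidea at -2.19, all below the fat signal, and Ppargc1a at -1.58 above it. Dio2 was at 0.00 there. The fat signal averages 20 genes that did not move alike. Among them Cidec, by its probe most like Ucp1, read 5.30, 4.65 and 5.70 with wild-type marrow. With knockout marrow it read 5.42, 2.61 and 0.69, a difference of -2.31 beside -2.30 for Ucp1. Plin1 differed by -2.06 and Agt by 0.59. A reading below the fat signal thus does not set a thermogenic gene apart from every single fat gene.

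**Figure D2:**
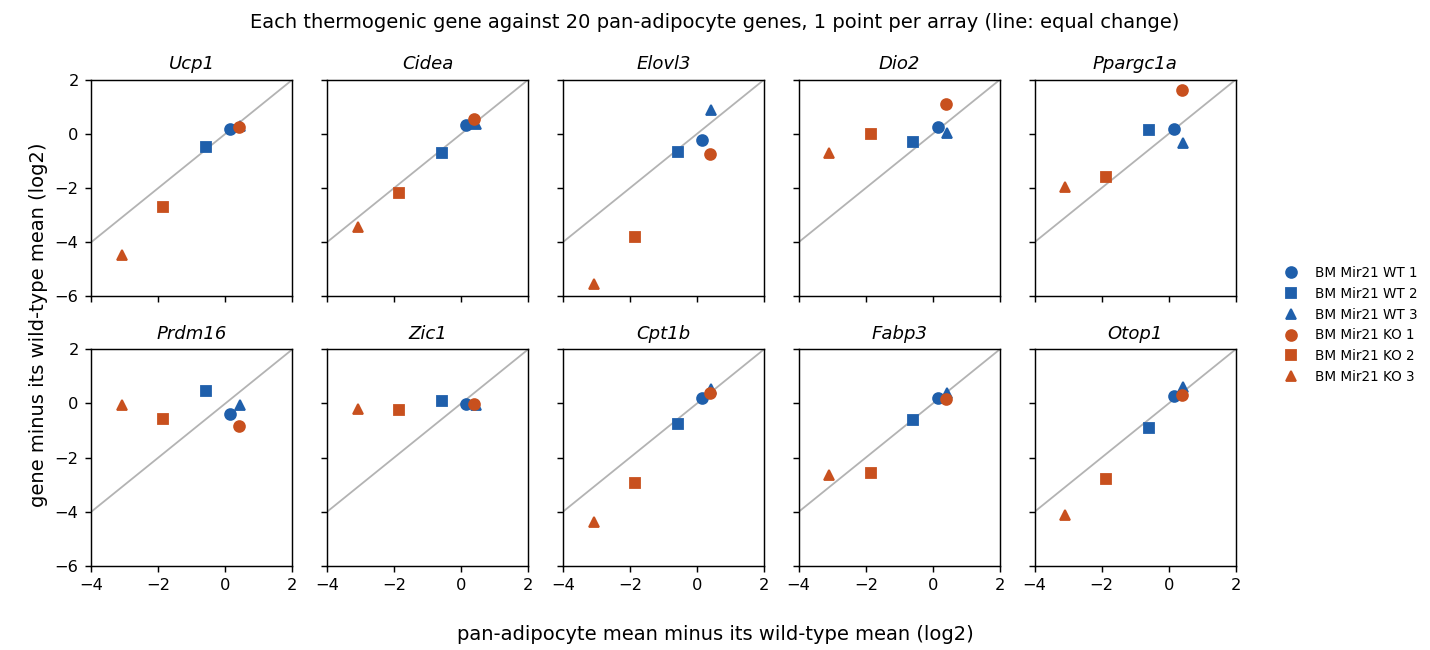
Each of the 10 genes (vertical axis, log2 difference of the brightest probe from its wild-type mean) against the mean of 20 pan-adipocyte genes (horizontal axis, same scale), with 1 point per array; the grey line marks equal change. Ucp1, Elovl3, Cpt1b and Otop1 lie below the line on knockout replicates 2 and 3, and Dio2, Prdm16 and Zic1 lie above it.

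When this fat signal entered the fit as a covariate, the median difference of the 10 genes was -0.22. The remaining differences were -0.32 ± 0.22 for Ucp1, 0.052 ± 0.17 for Cidea, -0.22 ± 0.17 for Cpt1b, -0.35 ± 0.34 for Fabp3 and -0.22 ± 0.17 for Otop1 by their brightest probes, each with a 95% interval that included 0. Elovl3 was still -1.28 ± 0.26 (95% interval from -1.92 to -0.63), Prdm16 -0.86 ± 0.25 (from -1.48 to -0.24) and Dio2 0.90 ± 0.18 (from 0.46 to 1.33). These 3 of the 10 genes had an unadjusted p below 0.05, as 9.2% of all tested probes did, and their adjusted p was 0.43, 0.47 and 0.43 (limma). Knockout replicate 1 and wild-type replicate 3 had nearly the same fat signal (0.40 and 0.43). Elovl3 stood at -0.74 on the former and 0.90 on the latter, and Dio2 at 1.09 and 0.04. Wild-type replicate 1, with a fat signal of 0.15, had Elovl3 at -0.22 and Dio2 at 0.26. The wild-type arrays alone ran from -0.67 to 0.90 for Elovl3 and from -0.30 to 0.26 for Dio2. The covariate comes from the same 6 arrays as the members, and the fit keeps 3 residual degrees of freedom.

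**Figure D3:**
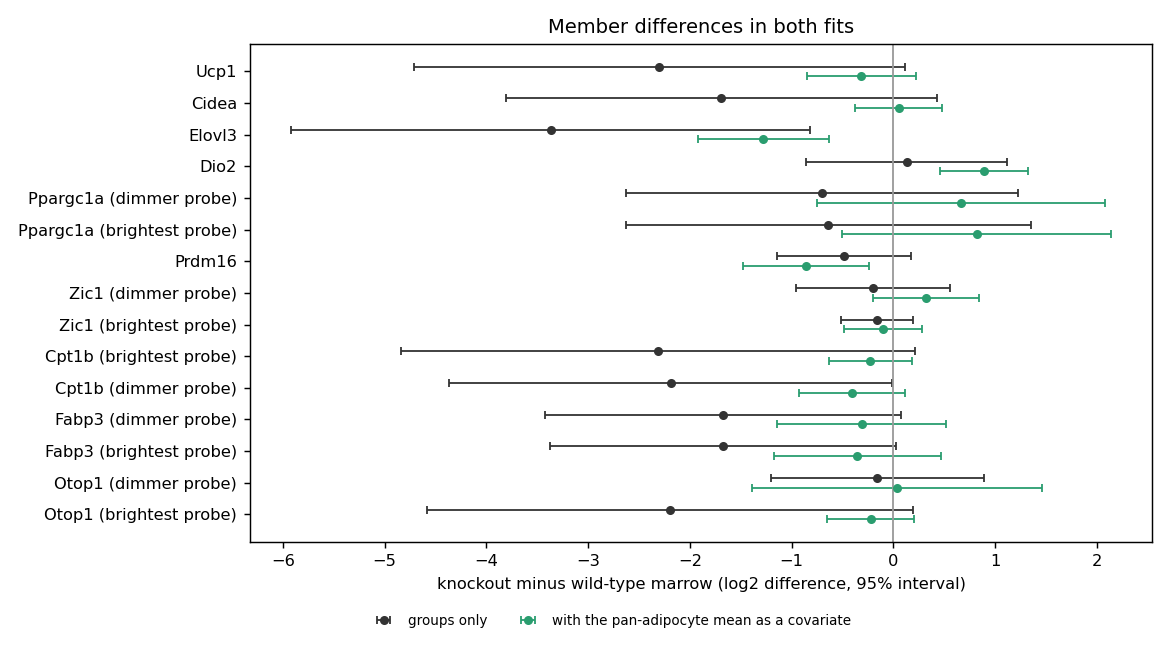
Knockout minus wild-type log2 difference with its 95% interval for each of the 15 probes, from the fit with groups only (black) and from the fit with the pan-adipocyte mean as a covariate (green). With the covariate the interval of Elovl3 and of Prdm16 lies below 0 and that of Dio2 above 0, while those of Ucp1, Cidea, Cpt1b, Fabp3 and Otop1 include 0.

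The same fit gives how steeply each gene varied with the fat signal among arrays of a group, as the log2 change per unit of log2 fat signal. By the brightest probes, the slope was 1.38 ± 0.10 (SE) for Elovl3, 1.38 ± 0.06 for Cpt1b, 1.31 ± 0.08 for Ucp1, 1.30 ± 0.07 for Otop1 and 1.15 ± 0.07 for Cidea. It was 0.96 ± 0.21 for Ppargc1a, 0.87 ± 0.13 for Fabp3, 0.50 ± 0.07 for Dio2, 0.04 ± 0.06 for Zic1 and -0.25 ± 0.10 for Prdm16. The dimmer Otop1 probe, well above background on every array, had a slope of 0.13 ± 0.22, unlike the brightest. The dimmer Zic1 probe, also well above background on every array, had a slope of 0.35 ± 0.08, so the low slope of Zic1 holds for its brightest probe only. The fat signal spanned 0.40 to -3.08 among the knockout arrays and -0.58 to 0.43 among the wild-type arrays, so the slopes rest mainly on the former, and they are given as a description. The brightest probes of Ucp1, Cidea, Elovl3, Cpt1b and Otop1 thus had slopes of 1.15 or above, and those of the regulators Prdm16 and Zic1 had slopes near or below 0.

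Otop1 was the only 1 of the 5 genes with 2 probes whose probes disagreed by more than 1 on the log2 scale in their group difference. The probe shown here lies 1354 bases upstream of the brightest, on mm9 at chr5:38694026-38694085 (plus strand), with the same accession, NM_172709.
Otop1 probe: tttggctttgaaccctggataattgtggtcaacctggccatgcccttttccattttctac

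This upstream Otop1 probe read 0.22, 0.80 and 0.93 on the wild-type arrays, against 1.12, -0.58 and 0.93 on the knockout arrays, a difference of -0.16 ± 0.45 (95% interval from -1.20 to 0.89) that turned to 0.38 when knockout replicate 2 was dropped. On knockout replicate 3 it stood 0.28 above its wild-type mean, where the downstream probe stood at -4.11. Both were well above background on every array. Whether they read the same transcripts was not tested. The probes of Zic1, Cpt1b and Fabp3 gave like differences, -0.16 and -0.20 for Zic1, -2.31 and -2.19 for Cpt1b, and -1.68 by either probe for Fabp3. The polyadenylation signal AATAAA was present in 5 of the 15 probes, including the downstream but not the upstream Otop1 probe.

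**Figure D4:**
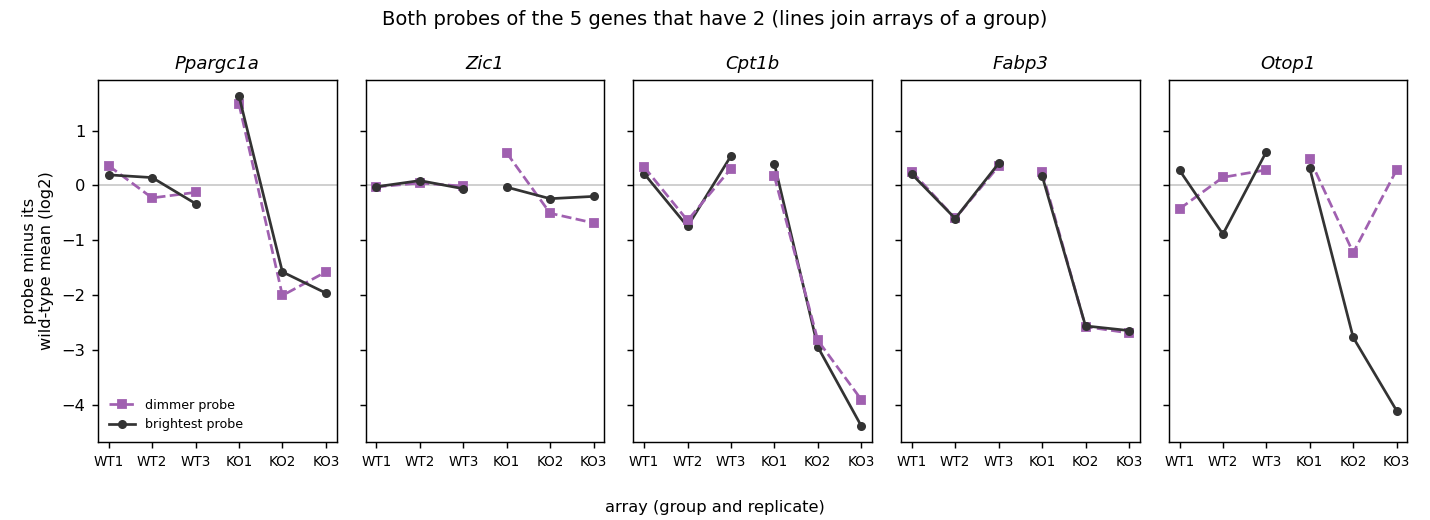
Log2 difference of each probe from its own wild-type mean on each array (horizontal axis) for the 5 genes with 2 probes; lines join the arrays of a group. The probes of Cpt1b and Fabp3 run together, whereas on knockout replicate 3 the probes of Otop1 stand at -4.11 and 0.28.

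The genes whose pattern over the 6 arrays was most like that of Ucp1, by the root mean square difference of centred log2 values, with members and uncharacterised transcripts left out, were, apart from Poln, genes of lipid droplets and fat cells. They were Cidec (0.10), a lipid droplet protein, Plin5 (0.17), a perilipin of cells that burn fat, Poln (0.17), a DNA polymerase, Plin1 (0.23), the main perilipin of adipocytes, Trarg1 (0.28), a regulator of glucose transporter traffic, and Mrap (0.28), the accessory protein of the ACTH receptor. Poln read 1.96, 0.97 and 2.23 with wild-type marrow, against 1.78, -1.19 and -2.93 with knockout marrow. Ranked among all tested probes, the members nearest to Ucp1 were Cpt1b (0.19 and 0.25 for its probes, ranks 4 and 6) and the downstream Otop1 probe (0.26, rank 7), which came before Trarg1 and Mrap. They were followed by Cidea (0.40), Elovl3 (0.62) and Fabp3 (0.66 for the nearer probe). Prdm16 was the farthest (1.90).

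Upstream of the thermogenic programme, 16 of 17 genes of adrenergic sensing and cyclic AMP signalling were tested, and 0 passed the adjusted test in either direction. Their median difference was -0.16, with 12 below 0, and it was 0.30 without knockout replicates 2 and 3 and 0.069 with the fat covariate. Adrb1, a beta-adrenergic receptor, had the smallest p and read 0.25, 0.19 and 0.00 with wild-type marrow against -0.42, -1.54 and -1.90 with knockout marrow. All 3 knockout arrays were below all 3 wild-type arrays, with a difference of -1.43 ± 0.36 (limma, adjusted p = 0.43). It was the only 1 of the 16 genes lower without overlap, beside 6.14% of all tested probes. Naming the gene of smallest p favours such a pattern. Prkar2b, the regulatory subunit of protein kinase A in fat, read -1.96 ± 1.01, and Adra1a, an alpha-adrenergic receptor, -1.61 ± 0.89. On knockout replicates 2 and 3 Adra1a read -5.52 and -5.59. These readings lay below the lowest value well above background on those arrays (-4.94 and -4.57), so the Adra1a difference is only a bound.

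Of 30 transcriptional regulators of brown fat outside the members, 28 were tested and 0 passed. The median difference was -0.43, and 23 differences lay below 0. Both low knockout arrays lay below all others for 14 genes, beside 14.7% of all tested probes. For the 3 regulators with the smallest p, knockout replicate 1 sided with the other knockout arrays. A small p favours genes whose arrays lie close together within a group, so this pattern comes with the selection. Klf11, a Krüppel-like factor, read -2.55, -2.58 and -2.67 with wild-type marrow, against -3.54, -3.37 and -3.31 with knockout marrow, a difference of -0.81 ± 0.15 (adjusted p = 0.36). Zfp516, a zinc finger activator of Ucp1, was 0.70 ± 0.17 higher (adjusted p = 0.42) and Thra, a thyroid hormone receptor, 0.60 ± 0.16 higher (adjusted p = 0.44). The groups did not overlap for 4 regulators on the lower and 2 on the higher side, beside 6.14% and 7.58% of all tested probes.

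Downstream, all 30 genes of fuel supply and mitochondria in brown fat were tested and 0 passed. Their median difference was -1.33, and 26 lay below 0. A difference of -1 or lower was seen for 19, beside 1.99% of all tested probes. For 22 both low knockout arrays lay below all others, beside 14.7% of all tested probes. The median of the 30 genes was -2.12 when knockout replicate 1 was dropped and -0.81 when replicate 3 was. Those with the smallest p were Hspb7, a small heat shock protein, at -0.61 ± 0.16, and the acyl-CoA thioesterases Acot11 at -1.20 ± 0.33 and Acot2 at -1.47 ± 0.45 (adjusted p = 0.44, 0.45 and 0.48, limma). Hspb7 read 2.49, 2.71 and 2.86 with wild-type marrow, against 2.00, 2.10 and 2.12 with knockout marrow, with the 3 knockout arrays close together. The pan-adipocyte genes themselves had a median of -1.61, with 18 of 20 below 0 and 0 past the test, and -2.61 and -0.87 with the same arrays dropped in turn. Among them Fasn, the fatty acid synthase, read -2.43 ± 0.94, the insulin-responsive glucose transporter gene Slc2a4 -1.44 ± 0.56, and Agt, angiotensinogen, 0.59 ± 0.17.

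Genes listed as markers of beige adipocytes, the heat-producing cells of white depots, had a median of -0.09 over the 11 tested of 15. Of these, 6 differences lay below 0 and 0 genes passed the test. The median was 0.095 without knockout replicates 2 and 3 and 0.060 without wild-type replicate 1. Not every gene of the list separates beige from brown cells, so its median does not measure beige cells alone. Slc36a2, an amino acid transporter on brown and beige cells, read 4.30, 2.73 and 4.42 with wild-type marrow, against 4.65, 0.97 and -1.50 with knockout marrow, in the same order of arrays as Ucp1 except at the top. Its difference was -2.44 ± 1.37. Eva1a read -0.55 ± 0.20 and Tnfrsf9, a receptor of the TNF family, -0.43 ± 0.19. Whether Eva1a marks beige cells was not tested.

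Markers of the other tissues of the arch were set beside these values. The 10 smooth muscle markers had a median difference of 0.28. Of these Myh11 read 0.78 ± 0.24, Mylk 0.49 ± 0.26 and Myocd 0.56 ± 0.30. Their centred means of 0.27 and 0.49 on knockout replicates 2 and 3 were the highest of the 6 arrays. The 13 cardiac markers had a median difference of 0.72, which was 0.22 without knockout replicate 1 and 1.34 without knockout replicate 2. Tnnt2 read 0.72 ± 0.28, Nppa 1.83 ± 0.87 and Nppb 0.48 ± 0.23. The 14 skeletal muscle markers had a median difference of -0.25 and varied most within the wild-type group, from -1.33 to 2.02 in their centred mean. Leaving out wild-type replicate 1 turned this median to 0.63, and leaving out wild-type replicate 2 made it -1.18. Myl1 read -1.44 ± 0.81, Myh2 -1.44 ± 1.40 and Acta1 0.18 ± 0.21. Sympathetic neuron markers had a median of -0.19 over the 7 tested of 10, with Slc18a2 at -0.44 ± 0.15, Slc6a2, the noradrenaline transporter, at 0.66 ± 0.27 and Chgb at -2.04 ± 0.85. On knockout replicate 3 Chgb read -4.66, below the lowest value well above background on that array (-4.57), so its difference is only a bound. None of these 4 lists had a member past the adjusted test, and the part of these tissues in the thermogenic readings was not tested.

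**Figure D5:**
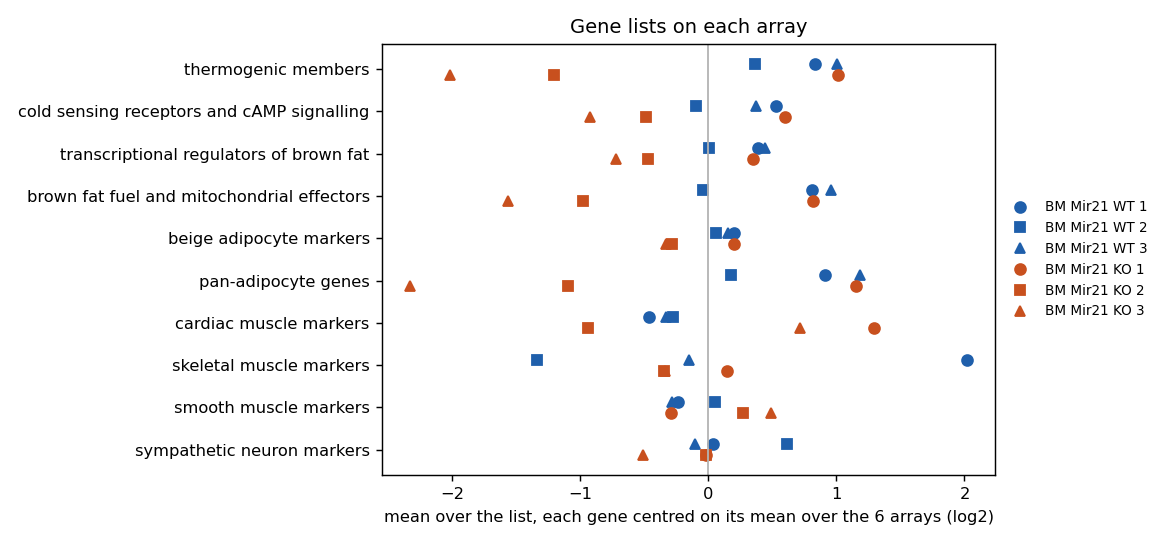
Mean of each gene list on each array (horizontal axis, log2, every gene centred on its mean over the 6 arrays), with 1 point per array. The thermogenic members stand at -1.20 and -2.02 on knockout replicates 2 and 3, where the pan-adipocyte genes stand at -1.10 and -2.33 and smooth muscle markers at 0.27 and 0.49.

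The Cidea probe lies on chromosome 18 of mm9 at 67527351 to 67527410 and the Prdm16 probe on chromosome 4 at 153690254 to 153690313. The dimmer probes of Ppargc1a, Zic1 and Cpt1b lie on chromosome 5 at 51846926 to 51846985, chromosome 9 at 91255425 to 91255484 and chromosome 15 at 89247106 to 89247165. Their place within exons and introns was not analysed here.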

How the data were processed

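RNA from 6 aortic arches, 100 ng each with an integrity number above 7.5, was hybridised to 1-colour arrays, per the labels' protocols. The authors' deposited scanner values are processed signals, an intensity on a linear scale, made with Agilent Feature Extraction 10.7.3.1 on mm9 design files, per the file headers. Background was subtracted, spatial trends removed and low values replaced by a surrogate, per the file headers, without scaling one array to another. The intensity in the authors' deposited series table differed from these by at most 0.497%.

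Each value is the log2 signal less the 75th percentile of the array's non-control spots, with outlier spots left out and replicate spots averaged. Probes were tested if every array of either group had them well above background, which 38341 of 55681 did. Of the probes, 27503 were named by accession, 3554 by name and 404 by synonym through RefSeq. Differences were fitted with lmFit and eBayes in limma 3.58.1 (R 4.3.3). P-values are two-sided, adjusted by Benjamini-Hochberg across the 38341 probes and called below 0.05, and the fit was tested on simulated data. The brightest tested probe stands for a gene in counts and medians. The members and lists were chosen with earlier results of these data known. Genes named were the members, the 3 genes of smallest p in each other list, and the 6 nearest to Ucp1, leaving out members and uncharacterised transcripts. The design text states 3 mice per group. The number of arrays limits the precision. Alternatives covered background correction, normalization, the dim-probe filter, the series table, a replicate block, the variance model, array weights, a pan-adipocyte covariate and leaving out arrays. Dropping both low knockout arrays was chosen after seeing the data.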

Additional observations from a re-analysis of the deposited data

How the results depend on the processing

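No member passed the adjusted test under any of the 16 alternatives, and the lowest adjusted p of any member was 0.081, for Fabp3 without knockout replicate 1 (limma). Leaving out 1 array at a time, the member median was lowest at -2.71 when knockout replicate 1 was dropped and highest at -1.01 when replicate 3 was. On the same basis Ucp1 ran from -3.58 to -1.21, Cidea from -2.81 to -0.82, Cpt1b from -3.67 to -1.28, the cardiac median from 0.22 to 1.34, the skeletal median from -1.18 to 0.63, the beige median from -0.13 to 0.060, Dio2 from -0.35 to 0.55, Ppargc1a from -1.77 to 0.023, the dimmer Zic1 probe from -0.60 to 0.041 and the upstream Otop1 probe from -0.47 to 0.38. Without knockout replicates 2 and 3 together, where the lone knockout array is assumed to vary like the wild-type group, the differences were 0.26 for Ucp1, 0.55 for Cidea, 1.63 and 1.48 for Ppargc1a, 0.59 for the dimmer Zic1 probe, 0.39 and 0.16 for Cpt1b, 0.18 and 0.25 for Fabp3, and 0.31 and 0.48 for Otop1. The medians there were 0.29 for the members, 0.15 for regulators, 0.30 for cyclic AMP genes, 0.095 for beige markers, 0.31 for fuel genes, 0.27 for pan-adipocyte genes, 1.57 for cardiac and -0.14 for smooth muscle markers. With the pan-adipocyte covariate the medians were -0.22 for the members, -0.025 for fuel genes, 0.069 for cyclic AMP genes, 0.095 for beige markers and -0.041 for smooth muscle, and Cidea read 0.052, Ppargc1a 0.82 and 0.67, the dimmer Zic1 probe 0.32 and the upstream Otop1 probe 0.034. Normexp gave 0.13 for the dimmer Ppargc1a probe and 0.12 for the dimmer Zic1 probe, and array weights gave -0.11 for Dio2. The cause was not tested. Probes called over the whole array numbered 1 as reported, 4 with normexp and 2 with median centring, array weights, trended robust variance, without knockout replicate 3 and without replicates 2 and 3. Replicate numbers did not pair the arrays, since deviations of same-numbered arrays correlated at 0.12, 0.05 and -0.28, and with the replicate block the member median was -1.68 with 0 members called. A slide block could not be fitted with 1 slide.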
